A study of Homo sapiens with 4 samples.

Results

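The genes of MHC class I antigen presentation examined here are HLA-B, HLA-C, HLA-E, B2M, TAP1, TAP2, TAPBP, PSMB8 and PSMB9, chosen by name in the RNA-seq table of the USP2-AS1 knockdown in A549 cells. Of these 9 genes, 1 had a row under its own symbol among the 6828 genes listed, and that gene was B2M. The other 8 were not analysed here under their symbols. For HLA-B, HLA-C and TAPBP, 5 rows without a gene name were matched to the gene by their sequence, as given below.

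A549 is a human lung adenocarcinoma line with epithelial features. Cells were infected with lentiviruses carrying either a control short hairpin RNA (shctrl, 2 libraries) or a hairpin against the long non-coding RNA USP2-AS1 (shUSP2-AS1, 2 libraries), and RNA was taken 72 h after infection. All 4 libraries thus come from infected cells of the same line, and the sources used here do not say which USP2-AS1 hairpin was sequenced, so the effect of a single hairpin cannot be told apart from that of the knockdown. Poly(A)-selected RNA was sequenced, and each value is a normalised read count, i.e. the reads on a gene divided by a size factor of the library. The reads on listed genes ranged from 10772788 to 14120472 per library.

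MHC class I molecules show peptides from inside the cell to CD8+ T cells. A heavy chain, encoded by genes such as HLA-B, HLA-C and HLA-E, pairs with the light chain β2-microglobulin, the product of B2M. Proteasomes cut cytosolic proteins into peptides, and in the immunoproteasome the catalytic subunits PSMB8 and PSMB9 take the place of the constitutive PSMB5 and PSMB6. The transporter TAP1-TAP2 moves the peptides into the endoplasmic reticulum, where tapasin, the product of TAPBP, bridges the transporter to the empty heavy chain. Interferons raise the transcription of most of these genes, and NLRC5 is the transactivator devoted to class I promoters.

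USP2-AS1, the targeted RNA, was measured first. Its normalised read counts were 23.2 and 24.2 with shctrl and 2.1 and 6.16 with shUSP2-AS1. USP2-AS1 was thus lower in both knockdown libraries, by 2.39 ± 0.56 (SE) on the log2 scale (limma on log2 of value plus 1, n = 2 per group, adjusted p = 0.0006), with 2 to 24 reads per library behind the values.

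The table holds a selected set of genes, since each of its 6828 genes had an adjusted p under 0.05 in the comparison made by the submitters. A limma fit of the 6812 genes whose mean reached 10 therefore gave almost every gene an adjusted p under 0.05, with 50.6% of genes higher and 49.4% lower in shUSP2-AS1. Genes are called here only where the adjusted p was under 0.05 and the change was at least 2-fold, and 16.1% of the genes tested were called higher and 13.5% lower (1098 and 922 genes). With the reads rescaled by the median of ratios over the listed genes alone, a set selected for change, 934 were called higher and 1143 lower. In the plot of all genes tested, few genes lie near a log2 fold change of 0.

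**Figure D1:**
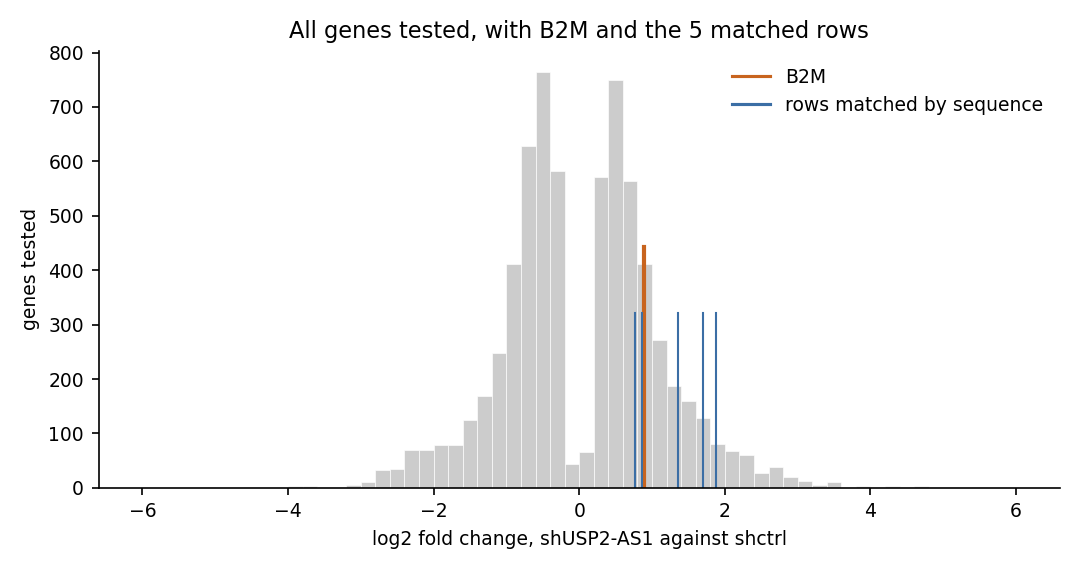
Histogram of the log2 fold change of shUSP2-AS1 against shctrl (x axis) over the 6812 genes tested (y axis, number of genes), with B2M as an orange line and the 5 rows matched by sequence to HLA-B, HLA-C and TAPBP as blue lines. B2M lies at 0.89 and the blue lines lie between 0.76 and 1.88, all to the right of 0.

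B2M encodes the light chain shared by all classical class I molecules. Its normalised read counts were 886 and 765 with shctrl and 1522 and 1536 with shUSP2-AS1. Both knockdown libraries were above both control libraries, a property that 50.6% of the genes tested shared. B2M rose by 0.89 ± 0.07 (SE) on the log2 scale, which is 1.86-fold, with an interval from 0.74 to 1.05 (95%, adjusted p = 4e-09, limma, n = 2 per group). The rise stayed under 2-fold, so B2M was not called, whereas 16.1% of the genes tested were called higher. The other 8 of the 9 genes were not tested by symbol. Of the 3450 genes that rose, 37.7% rose by more than B2M. The value depended on the scaling, and was 0.77 when the reads were scaled by the median of ratios over the listed genes and 0.95 when they were scaled by the upper quartile.

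In the table, B2M (ENSG00000166710) lies on the plus strand at chr15:44711487-44718877 of hg38 with a length of 6079 bases. The canonical GENCODE transcript of B2M has 943 bases, and 942 of them are also found on an alternate sequence of chromosome 15 in hg38. Reads of B2M can thus match the reference at more than 1 place, and how such reads were counted is not given in the sources used here. The level of B2M is uncertain for that reason, and between 696 and 1745 reads per library were counted on it. The part of the alternate copy in the level and in the fold change of B2M was not tested.

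The other 8 genes lie in the MHC on chromosome 6, between HLA-E and TAPBP at chr6:30489509-33314284 of hg38. GENCODE places 135 protein-coding genes wholly within that interval, and 0 of them were analysed here by identifier, against 6358 of the 19898 protein-coding genes elsewhere (32%). The reference genome also holds the MHC as several alternate haplotypes, and all 9 genes had a canonical transcript with at least 90% of its bases identical on an alternate sequence. Of the 49 other pathway genes reported here that had a row, 1 had such a copy, namely IRF7. Of the 55 without a row, 16 had such a copy, so most of them lacked both. The part of the alternate sequences in which genes were listed was not tested.

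Among the rows without a gene name, 10 rows reported here lay on alternate MHC haplotypes, and each was compared with chromosome 6 by sequence after its values had been seen. In 5 cases the closest stretch of chromosome 6 was HLA-B, HLA-C or TAPBP. HLA-B was matched by the rows of the MANN (96.7% identical bases) and QBL (96.9%) haplotypes, and HLA-C by the rows of the DBB and MANN haplotypes (96.2% each). TAPBP was matched by a row of the DBB haplotype (99.7%). For these 4 heavy chain rows the next best match elsewhere in the region was 89% to 90.4% identical. It was looked for in the same orientation only, with short matches set aside, and was not assigned to a gene. The table itself describes all 4 rows as holding class I histocompatibility antigen domains. Heavy chain genes share long stretches, and reads from these stretches cannot be assigned to a single gene with certainty.

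A stretch of 60 coding bases shows how far the HLA-B rows differ from chromosome 6 and from each other. It lies on the minus strand at chr6:31356711-31356770 of hg38 and was chosen as the stretch in which both HLA-B rows differ most, at 8 bases. Capitals mark the 14 bases at which the sequences are not all the same.
HLA-B on chromosome 6: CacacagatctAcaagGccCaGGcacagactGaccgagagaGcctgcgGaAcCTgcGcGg
HLA-B MANN: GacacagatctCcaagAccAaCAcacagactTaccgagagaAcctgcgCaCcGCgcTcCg
HLA-B QBL: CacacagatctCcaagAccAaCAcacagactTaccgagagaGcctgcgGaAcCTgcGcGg
The MANN row differed from chromosome 6 at 14 of these bases and the QBL row at 6.

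The corresponding stretch of HLA-C, on the minus strand at chr6:31271106-31271165, differed at 3 bases between the DBB and MANN rows, marked in capitals.
HLA-C on chromosome 6: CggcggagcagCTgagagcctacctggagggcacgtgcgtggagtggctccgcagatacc
HLA-C DBB: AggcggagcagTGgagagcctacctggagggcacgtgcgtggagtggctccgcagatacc
HLA-C MANN: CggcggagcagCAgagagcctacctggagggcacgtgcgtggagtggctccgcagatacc
The DBB row differed from chromosome 6 at 3 of these bases and the MANN row at 1.

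HLA-B encodes the most polymorphic classical heavy chain. In the QBL row, the normalised read counts were 68.6 and 64.8 with shctrl and 207 and 232 with shUSP2-AS1. In the MANN row, they were 108 and 48.4 with shctrl and 265 and 272 with shUSP2-AS1. Both rows were higher in both knockdown libraries, as were 50.6% of the genes tested. The control libraries of the MANN row differed from each other by more than its knockdown libraries did. The QBL row rose 3.26-fold (1.70 ± 0.16 (SE) on the log2 scale, adjusted p = 2.4e-08) and the MANN row 3.67-fold (1.88 ± 0.25, adjusted p = 1.5e-06), and both were called (limma, n = 2 per group).

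HLA-C encodes a heavy chain that is also a ligand of killer-cell immunoglobulin-like receptors on natural killer cells. In the MANN row, the normalised read counts were 1173 and 1055 with shctrl and 1950 and 2105 with shUSP2-AS1. In the DBB row, they were 505 and 534 with shctrl and 825 and 944 with shUSP2-AS1. Both knockdown libraries were above both control libraries in each row, as for 50.6% of the genes tested, and both rows stayed under 2-fold. The MANN row rose by 0.86 ± 0.07 (SE) on the log2 scale (adjusted p = 1.8e-09) and the DBB row by 0.76 ± 0.08 (adjusted p = 1.6e-07).

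TAPBP encodes tapasin, the chaperone that joins the heavy chain to the peptide transporter. In the DBB row matched to TAPBP, the normalised read counts were 14.5 and 16.5 with shctrl and 44.2 and 38.7 with shUSP2-AS1. This row rose 2.57-fold (1.36 ± 0.33 (SE) on the log2 scale, adjusted p = 0.00082, limma), with 15 to 44 reads per library. Of the 3450 bases of the canonical TAPBP transcript, 3450 are also found on an alternate sequence. Reads of TAPBP can thus match more than 1 place, and this row may hold only a part of them. The change of TAPBP as a whole was not tested. Of the 5 matched rows, 3 were called higher, against 16.1% of all genes tested. The other 2, those of HLA-C, rose by less than 2-fold. The median log2 fold change of the 5 rows was 1.36. HLA-B and HLA-C each gave 2 of the 5 rows, so the rows are not separate genes. A count of rows and a share of genes are thus unlike measures. When the test was set against a fold change of 2 rather than 0, 2 of the 5 were called, both of them HLA-B. No value is given for HLA-E, TAP1, TAP2, PSMB8 or PSMB9, which had neither a row under their symbol nor a matched row and were not analysed here.

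**Figure D2:**
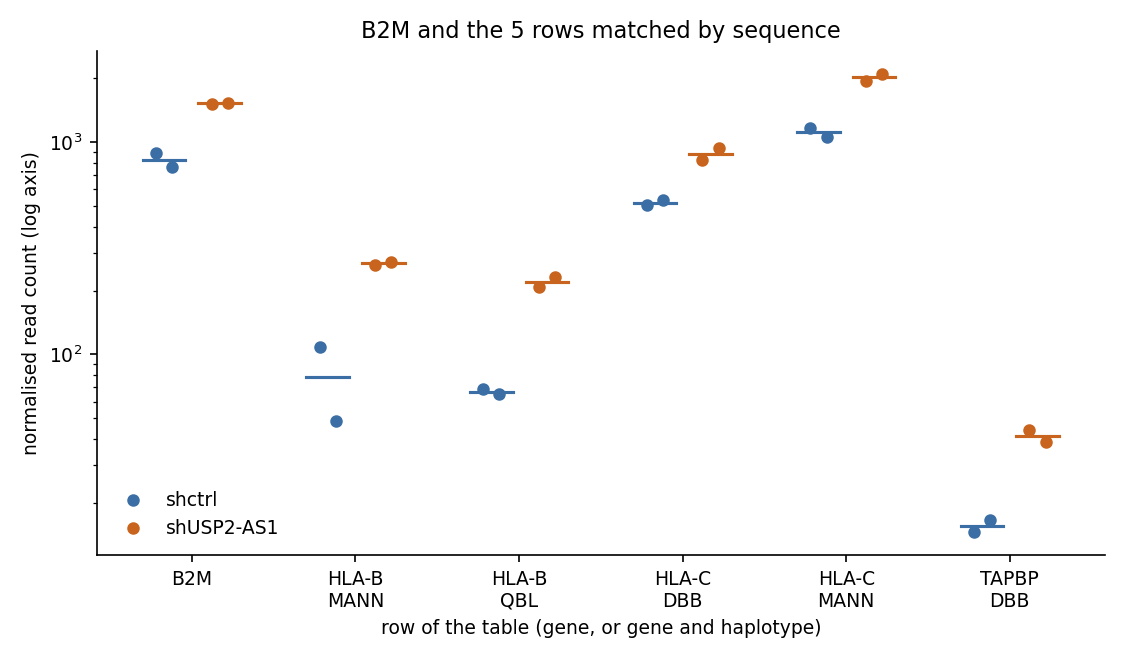
Normalised read count (y axis, log scale) of B2M and the 5 rows matched by sequence (x axis, gene and haplotype) in each library, with shctrl in blue and shUSP2-AS1 in orange. Points are libraries (n = 2 per group) and short lines are means. In all 6 rows both orange points lie above both blue points, as for 50.6% of the genes tested. In the MANN row of HLA-B the blue points lie at 48.4 and 108.

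Heavy chain and light chain values were then set against each other within each library, so that the scaling of the library cancels. The rows of a heavy chain gene were summed for this purpose, without correction for length. HLA-C summed to 1634 ± 63.1 with shctrl and to 2912 ± 194 with shUSP2-AS1 (SD, n = 2 per group). Its log2 ratio to B2M was 0.92 and 1.05 with shctrl and 0.87 and 0.99 with shUSP2-AS1, so that the groups overlapped and the mean ratio differed by -0.06 (shUSP2-AS1 minus shctrl, exact permutation test, two-sided p = 0.667). The summed HLA-B rows gave log2 ratios of -2.32 and -2.75 in shctrl and -1.69 and -1.60 in shUSP2-AS1, a difference of 0.89. For HLA-B the groups did not overlap, and the exact two-sided permutation p was 0.333, the smallest that 2 libraries against 2 can give (0.667 for each gene after Benjamini-Hochberg adjustment over the 2 ratios).

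**Figure D3:**
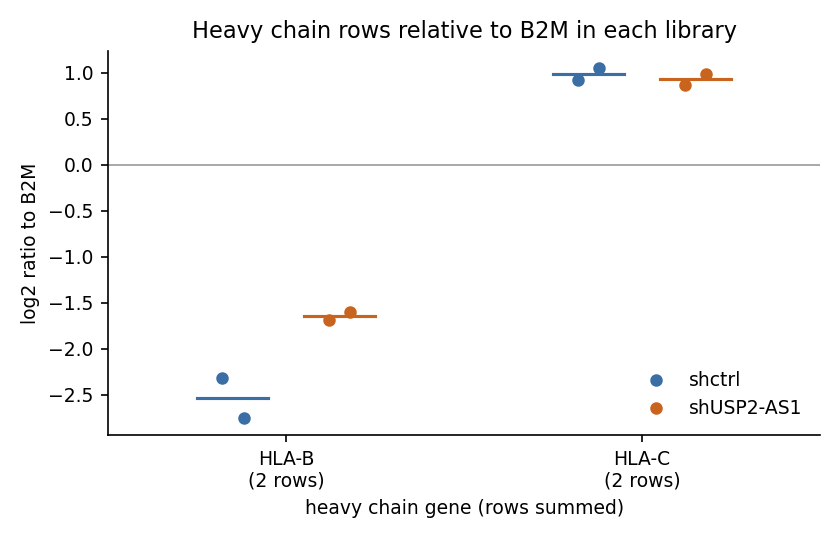
The log2 ratio of the summed heavy chain rows to B2M (y axis) in each library for HLA-B and HLA-C (x axis), with shctrl in blue and shUSP2-AS1 in orange. Points are libraries and short lines are means of 2. For HLA-C the groups overlap, with values from 0.87 to 1.05, whereas the HLA-B points of shUSP2-AS1 (-1.69 and -1.60) lie above those of shctrl (-2.32 and -2.75).

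The other genes of the pathway were taken from 8 lists of 104 genes, ordered by role, of which 49 had a row. Of these 49 genes, 9 were called higher (against 16.1% of all genes tested) and 2 lower (against 13.5%), while 20 rose and 18 fell by less than 2-fold. Their median log2 fold change was 0.37, against 0.19 over all genes tested. The median over all genes tested changed with the genes kept, and was -0.18 when genes with a mean below 50 were left out.

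**Figure D4:**
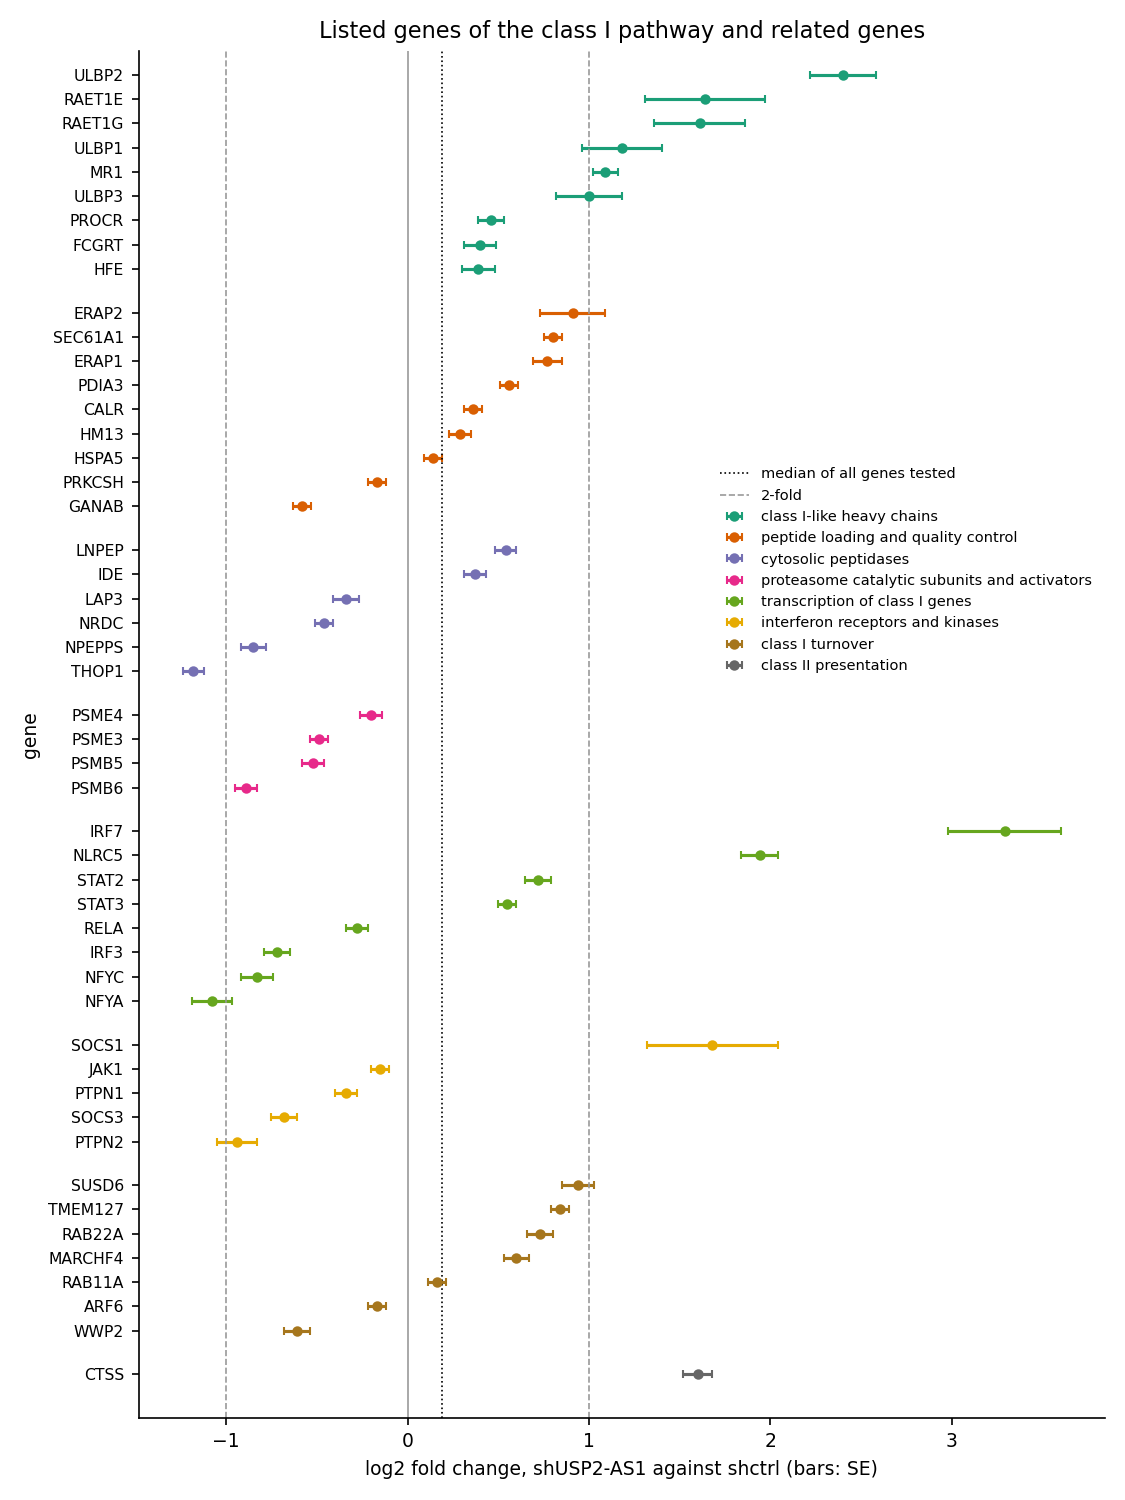
The log2 fold change of shUSP2-AS1 against shctrl (x axis) with its SE for the 49 listed genes of the pathway lists (y axis), coloured by list. Dashed lines mark 2-fold changes and the dotted line the median of all genes tested (0.19). All 9 class I-like heavy chain genes lie to the right of 0 and all 4 proteasome genes to the left.

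Of the 16 genes with a class I-like heavy chain, 9 had a row, 5 were called higher (against 16.1% of all genes tested) and 4 rose by less than 2-fold, with a median log2 fold change of 1.09. Under the limma test against a fold change of 2, ULBP2 alone of these 9 was called. The class I-like molecule MR1, which presents metabolites of microbial vitamin synthesis to mucosal-associated invariant T cells, had values of 566 and 546 in shctrl and 1207 and 1168 in shUSP2-AS1. MR1 rose by 1.09 ± 0.07 (SE) on the log2 scale (adjusted p = 2.1e-10, limma), and by 0.98 when scaled by the median of ratios over the listed genes. ULBP2 and RAET1G encode ligands of NKG2D, an activating receptor of natural killer cells and CD8+ T cells. ULBP2 had values of 40.6 and 39.6 in shctrl and 232 and 202 in shUSP2-AS1 (5.29-fold, adjusted p = 1.2e-09), and RAET1G had values of 27.1 and 42.9 in shctrl and 93.6 and 120 in shUSP2-AS1 (3.05-fold, adjusted p = 1.2e-05). The related ligands ULBP1, ULBP3 and RAET1E, named after their values were seen, had log2 fold changes of 1.18, 1.00 and 1.64, of which that of ULBP3 was just short of 2-fold and was called under 6 of the alternative settings. The ULBP and RAET1 genes are close paralogs, and the assignment of reads among them is uncertain. HFE, FCGRT and PROCR, whose products bind the transferrin receptor, IgG and protein C, had the smallest rises of the list, at 0.39, 0.40 and 0.46 on the log2 scale.

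Peptide loading in the endoplasmic reticulum was represented by 9 of 15 genes, none of which was called (against 16.1% of all genes tested called higher and 13.5% lower). Of these 9 genes, 7 rose and 2 fell by less than 2-fold, with a median log2 fold change of 0.36. Among all genes tested, 50.6% were higher. SEC61A1, the channel through which proteins enter the endoplasmic reticulum, had the lowest p. Its values were 4747 and 4756 in shctrl and 8233 and 8271 in shUSP2-AS1, a rise of 0.80 ± 0.05 (SE) on the log2 scale (adjusted p = 5.7e-11, limma). The peptide-trimming aminopeptidases ERAP1 and ERAP2 rose by 0.77 and 0.91 on the log2 scale. PDIA3 and CALR, which join tapasin in the loading complex, rose by 0.56 and 0.36. GANAB, a subunit of the glucosidase that trims the heavy chain glycan, fell by 0.58 on the log2 scale.

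Among the genes that make and destroy peptides in the cytosol, 4 of 9 proteasome genes had a row, and these 4 fell by less than 2-fold, with a median log2 fold change of -0.51. Over all genes tested, 49.4% were lower. PSMB6, the constitutive catalytic subunit that PSMB9 displaces, had values of 3127 and 3010 in shctrl and 1608 and 1701 in shUSP2-AS1, and fell by 0.89 on the log2 scale (SE 0.06, adjusted p = 1.2e-10, limma). PSMB5, the subunit that PSMB8 displaces, had values of 3639 and 3257 in shctrl and 2304 and 2507 in shUSP2-AS1, and fell by 0.52 on the log2 scale (SE 0.06, adjusted p = 4.7e-07). No ratio of an immunoproteasome subunit to its constitutive counterpart could be formed. Among the cytosolic peptidases, 6 of 8 genes had a row, 1 was called lower (against 13.5% of all genes tested), 3 fell and 2 rose by less than 2-fold. THOP1, a peptidase that degrades class I ligands in the cytosol, was the gene called, with values of 2241 and 2219 in shctrl and 995 and 972 in shUSP2-AS1, a fall by 1.18 on the log2 scale (SE 0.06, adjusted p = 5.9e-12).

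Of the 17 genes listed for the transcription of class I genes, 8 had a row, 2 were called higher and 1 lower, and 2 rose and 3 fell by less than 2-fold. These shares are near those of all genes tested (16.1% called higher and 13.5% lower). NLRC5, the class I transactivator, had values of 207 and 242 in shctrl and 906 and 821 in shUSP2-AS1. NLRC5 rose 3.84-fold (1.94 ± 0.10 (SE) on the log2 scale, adjusted p = 8.9e-12, limma). IRF7, a factor of the interferon response, had values of 8.7 and 8.79 in shctrl and 98.8 and 89.8 in shUSP2-AS1, a rise of 3.29 ± 0.31 on the log2 scale (adjusted p = 2.3e-08). Of the 1923 bases of its canonical transcript, 1922 are also found on an alternate sequence, so the level of IRF7 is uncertain in the same way as that of B2M. NFYA, a subunit of the factor that binds CCAAT boxes, had values of 540 and 636 in shctrl and 259 and 298 in shUSP2-AS1, a fall by 1.08 on the log2 scale (SE 0.11, adjusted p = 4.7e-08). Without shctrl replicate 2 or without shUSP2-AS1 replicate 1, NFYA fell by 0.96 and 0.98 on the log2 scale and was no longer called. STAT2, which carries the interferon signal to the nucleus, rose by 0.72 on the log2 scale, and IRF3 fell by 0.72.

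Among the genes of interferon receptors and kinases and their inhibitors, 5 of 13 had a row. SOCS1, an inhibitor of the Janus kinases that interferon itself induces, was called higher, with values of 12.6 and 11 in shctrl and 43.1 and 37 in shUSP2-AS1 (1.68 ± 0.36 (SE) on the log2 scale, adjusted p = 0.00026, limma). The other 4 fell by less than 2-fold, among them PTPN2, a phosphatase that dephosphorylates Janus kinases, by 0.94 on the log2 scale, and SOCS3 by 0.68. Of the 11 genes of class I turnover, 7 had a row, none was called, and 5 rose and 2 fell by less than 2-fold (limma). The counts of this list and of the interferon list stand beside 16.1% of all genes tested called higher and 13.5% called lower. Called or not, 50.6% of all genes tested were higher and 49.4% lower. TMEM127 and SUSD6 encode membrane proteins that form a complex with the ubiquitin ligase WWP2 and remove class I molecules. TMEM127 had the lowest p, with values of 2047 and 2065 in shctrl and 3589 and 3773 in shUSP2-AS1, a rise of 0.84 ± 0.05 (SE) on the log2 scale (adjusted p = 1.3e-10). SUSD6 rose by 0.94 on the log2 scale, whereas WWP2 fell by 0.61.

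Class II presentation was represented by 1 of 15 genes. CTSS, the protease that trims the invariant chain of class II molecules, had values of 444 and 395 in shctrl and 1237 and 1300 in shUSP2-AS1, a rise of 1.60 ± 0.08 (SE) on the log2 scale (adjusted p = 5.8e-12, limma). Markers of other cells were examined beside these values. Of 12 haematopoietic markers, 1 had a row, the integrin gene ITGAM, with values of 78.3 and 106 in shctrl and 270 and 240 in shUSP2-AS1 (1.48 ± 0.16 on the log2 scale). The other 11 were not analysed here. Of 10 epithelial markers, 5 had a row, with a median log2 fold change of -0.49. Of these 5, 1 was called higher and 1 lower, while 1 rose and 2 fell by less than 2-fold. KRT18, a keratin of simple epithelia, had values of 30473 and 29565 in shctrl and 14145 and 14811 in shUSP2-AS1, and fell by 1.05 on the log2 scale. CLDN4, a tight junction protein, had values of 112 and 115 in shctrl and 355 and 450 in shUSP2-AS1, and rose by 1.81 on the log2 scale. The keratin genes KRT7 and KRT8 fell by 0.49 and 0.77 on the log2 scale, and KRT19 rose by 0.75. Over all genes tested, 16.1% were called higher and 13.5% lower. Called or not, 50.6% were higher and 49.4% lower. The part of a change in cell state or composition in the class I values was not tested, and in bulk RNA fewer cells of a type and less RNA per cell cannot be told apart.

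The promoters of the class I genes were examined for the elements known to drive them. RefSeq promoter windows of GRCh38.p14, from 250 bases before to 50 bases after the start, were available for 8 of the 9 genes. The core of the interferon-stimulated response element was searched on both strands as GAAANNGAA, and was found in 5 of 8 genes (B2M, TAP1, TAP2, TAPBP and PSMB8) and in 8.11% of all 35116 windows. When the GAAA and GAA parts were allowed in either order, as GAAANNGAA or GAANNGAAA, a form added after the sequences were seen, 7 of 8 genes held a match, HLA-B and HLA-C included, against 14.5% of all windows. The kappaB motif was found in 5 of 8 genes (11.3% of all windows), CCAAT in 5 of 8 (34.6%), and TTCNNNGAA, the gamma-activated site, in TAP1 and PSMB8 (7.66%). A gene was counted where any of its windows held a match, whereas the percentages are shares of single windows, so counts and percentages are unlike measures. The windows of some genes overlap, and a match is a description of the letters only.

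The 250 bases before the start of B2M, HLA-B and HLA-C are shown as those of the light chain and of the heavy chain genes with matched rows. Capitals mark matches to the interferon-stimulated response element in either order, the kappaB motif and CCAAT on either strand. The windows lie at chr15:44711267-44711516 on the plus strand (B2M), chr6:31357180-31357429 on the minus strand (HLA-B) and chr6:31272093-31272342 on the minus strand (HLA-C).
B2M: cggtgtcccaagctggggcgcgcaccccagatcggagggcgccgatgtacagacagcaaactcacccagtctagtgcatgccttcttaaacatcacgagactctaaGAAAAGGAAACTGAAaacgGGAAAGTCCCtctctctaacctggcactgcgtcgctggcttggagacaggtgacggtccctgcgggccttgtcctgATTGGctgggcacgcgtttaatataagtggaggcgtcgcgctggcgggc
HLA-B: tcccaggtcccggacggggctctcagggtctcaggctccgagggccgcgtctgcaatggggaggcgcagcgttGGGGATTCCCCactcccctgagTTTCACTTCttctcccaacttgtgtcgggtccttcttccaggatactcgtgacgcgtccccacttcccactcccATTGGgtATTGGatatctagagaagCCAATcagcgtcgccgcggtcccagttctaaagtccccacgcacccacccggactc
HLA-C: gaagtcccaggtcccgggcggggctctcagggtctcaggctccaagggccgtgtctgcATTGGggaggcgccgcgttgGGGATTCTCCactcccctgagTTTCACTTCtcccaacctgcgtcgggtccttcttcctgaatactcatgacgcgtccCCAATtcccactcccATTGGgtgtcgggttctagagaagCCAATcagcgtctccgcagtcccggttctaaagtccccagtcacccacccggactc
In B2M, 2 overlapping matches to the interferon-stimulated element lie between 144 and 130 bases before the start and are followed by the kappaB match at 125 to 116 bases. In HLA-B and HLA-C the order was the other way round, with the kappaB match before the interferon-stimulated element at 155 to 147 bases (HLA-B) and 151 to 143 bases (HLA-C) before the start. The matched CCAAT or its reverse nearest the start lay 49 to 45 bases before it in B2M and 56 to 52 bases before it in both heavy chain genes.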

How the data were processed

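RNA-seq libraries of A549 cells (2 shctrl, 2 shUSP2-AS1) were analysed from 1 deposited table. The submitters' processing notes name HISAT2 2.0.5, featureCounts 1.5.0-p3, DESeq2 1.20.0 and hg38; the annotation release and strand setting are not given in the sources used here. The authors deposited a normalised signal, read counts divided by a size factor, together with the log2 fold changes and p-values of their own comparison, used only to count the genes under an adjusted p of 0.05. The heading of the table sets shUSP2-AS1 against shctrl, but its columns are named scr and sh216 with a replicate number. The scr columns were read as shctrl and the sh216 columns as shUSP2-AS1, which no label states. Dividing by the value of 1 read gave whole reads for 100% of values (tolerance 0.02).

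Genes whose mean value reached 10 were analysed as log2(value + 1) in limma 3.58.1 (R 4.3.3, lmFit, eBayes with a trend), with Benjamini-Hochberg adjustment over 6812 genes. Recovered reads were also tested with edgeR 4.0.16 and DESeq2 1.42.0. Methods were also run on simulated counts in which most genes did not change. Since the listed genes were selected for change, that run gives no error rates for these data. Libraries of a group differed beyond counting noise, with a chi-square per degree of freedom of 3.72 (shctrl) and 3.83 (shUSP2-AS1). The study states biological replicates. Unnamed rows were compared with chromosome 6 with blastn 2.17.0, after placing each haplotype by its first 20000 bases, and canonical transcripts were mapped with minimap2 2.31-r1302.

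The genes, lists and tests were chosen with earlier results of these data known. Named genes were all 9 genes, the targeted gene, PSMB5 and PSMB6, and per list up to 3 called genes with the lowest p (otherwise 1). Further genes were named after their values were seen. Some listed items are not reported here and were left out of the lists and of the rows matched by sequence.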

Additional observations from a re-analysis of the deposited data

How the results depend on the processing

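B2M stayed higher in shUSP2-AS1 by less than 2-fold, with an adjusted p under 0.05, under the alternative scalings, pseudocount, filters, count tests and block and with each library left out. Under the limma test against a fold change of 2 it was not called. Its log2 fold change ranged from 0.79 (without shctrl replicate 2) to just short of 1.00 (without shctrl replicate 1) when a library was left out, where a lone library is assumed to vary like the other group. Scaling by the median of ratios over the listed genes alone, a set selected for change, moved the median log2 fold change of all genes tested by -0.12. It also turned the balance of calls, to 934 higher and 1143 lower. Under a limma test against a fold change of 2, 1064 genes rather than 2020 were called, 5 rather than 11 pathway genes (4 higher and 1 lower) and 2 rather than 3 matched rows. Median-of-ratios scaling called 4 pathway genes lower rather than 2, adding PSMB6 and PTPN2 and losing MR1 among the higher. Without shctrl replicate 2, the log2 fold change was -0.96 for NFYA, -1.02 for PTPN2 and 1.06 for ERAP2. It was -0.98 for NFYA without shUSP2-AS1 replicate 1, and 1.03 for SUSD6 without shUSP2-AS1 replicate 2. NFYA thus fell short of 2-fold in these cases, whereas PTPN2, ERAP2 and SUSD6 went beyond it. The matched rows of HLA-B and TAPBP rose by more than 2-fold whichever library was left out. The difference in the HLA-C ratio to B2M ranged from -0.13 to 0.01 when a library was left out, and turned to 0.01 without shctrl replicate 2 and to 0.00 without shUSP2-AS1 replicate 1. The causes were not tested. With the replicate number as a replicate block, 2020 genes, 11 pathway genes and 3 matched rows were called, and B2M was 0.89; replicate differences of both groups correlated at -0.04, so the numbers were not taken to pair the libraries. Of the 396 alternative values, 388 kept their direction and, for single genes, their side of the adjusted p of 0.05 (not of the 2-fold threshold), or stayed within 1.5 times a count or within the spread of replicates. For single genes this was largely fixed beforehand, since every listed gene had been selected on an adjusted p under 0.05 in these same libraries. The values for the 9 genes as a set all restate those of B2M, so the 396 values are not separate checks. ULBP3 was called in addition under upper quartile scaling, a pseudocount of 0.1, edgeR and DESeq2, and without shctrl replicate 1 or shUSP2-AS1 replicate 1. Genes between the members had no row, and the planned ratios between members under their own symbols could not be formed with 1 of 9 listed; those of HLA-B and HLA-C to B2M rest on matched rows. Rows with few reads, such as those of TAPBP and USP2-AS1, are limited by depth.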

Other observations

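The other 5 unnamed rows on alternate MHC haplotypes were matched to no gene of class I presentation. A row of the COX haplotype matched to DDR1, a collagen receptor, had values of 122 and 132 in shctrl and 208 and 256 in shUSP2-AS1, whereas a MANN row matched to DDR1 had 30 and 44 in shctrl and 2.1 and 0 in shUSP2-AS1. A COX row matched to TRIM27 had 0 and 1.1 in shctrl and 58.9 and 32.6 in shUSP2-AS1. An MCF row matched to WDR46, which neighbours TAPBP, had 31.9 and 36.3 in shctrl and 10.5 and 11.4 in shUSP2-AS1. A QBL row with no protein-coding gene on its strand had 8.7 and 6.59 in shctrl and 104 and 63.4 in shUSP2-AS1. Of these 5 rows, 3 were thus higher and 2 lower in the knockdown libraries. The rows of DDR1 differed in direction, but they match separate stretches, chr6:30891871-30900981 (COX) and chr6:30890932-30891479 (MANN). They thus do not compare the same sequence between haplotypes, and the MANN row had 0 to 40 reads per library.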
